A study of Mus musculus with 21 samples.

Results

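The 69 genes described here carry symbols of proteins of the cytosolic ribosome. They were chosen by symbol: every gene whose single symbol in the probe annotation follows the pattern Rpl, Rps or Rplp plus a number, without Rpl39 and Rpl39l, and with values on at least 3 arrays of each of 5 comparisons. The pattern matched 70 genes, of which 69 could be tested among 4465 tested genes of the series, and the X-linked Rpl36a could not. By symbol, the 69 comprised 41 large subunit genes, 25 small subunit genes and the 3 genes of the acidic stalk. Among the 69, 2 (Rps4x and Rpl10) lie on the X chromosome. Of their 159 probes, 151 were tested, and 46 of the genes had more than 1 probe.

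The ribosome joins a small subunit, which reads the messenger RNA, to a large subunit, which forms the peptide bond. Nearly every ribosomal protein is present in a single copy in each ribosome, so the genes tend to be expressed together in tissues that make many ribosomes. In the male germ line the X chromosome is silenced during meiosis, and some X-linked ribosomal protein genes have autosomal relatives that are used in the testis. Many ribosomal protein genes start transcription within a run of pyrimidines, and the run at the 5′ end of their messenger RNA is known for its part in the control of their translation.

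RNA of whole mouse gonads was hybridised on 21 arrays with 2 channels each. Wild type ovary was set against wild type testis on 4 arrays. Testis of 15 day wild type animals was set against adult wild type testis on 4 arrays, and whole testis of Spo11 knockout animals against wild type whole testis on 4. Wild type testis (4 arrays) and wild type ovary (5 arrays) were each set against Universal mouse reference RNA from Stratagene, a commercial RNA shared by both comparisons. Spo11 makes the DNA breaks of meiotic recombination, and no probe was named for it, so the knockout was not checked on its target. The ages of the other animals, the strain, the nature of the knockout allele and the number of animals were not given in the sources used here. Whether the arrays of a comparison held separate animals was not stated, so the p-values cover the variation among arrays alone, and that variation may be technical.

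Values are log2 ratios, with each array centred on its median. The numerator was not labelled and was likely the source named first (ovary, 15 day, knockout, or the tissue against the reference). This rests on few genes. In ovary against testis the oocyte gene Gdf9 was at 1.0 ± 0.35, the oocyte gene Zp2 at 0.30 ± 0.23 and the flagellar gene Tekt2 at -4.68 ± 0.33 (SE of the fit, n = 4 arrays), while the spermatid gene Oaz3 pointed the other way at 0.79 ± 0.27. Tekt2 was at -4.685 at 15 days, -5.73 in the knockout and 5.735 in testis against reference, where Oaz3 was at 0.24, -0.35 and -2.20. In ovary against reference Gdf9 was at 0.87 and Zp2 at 1.25. In the knockout the oocyte genes pointed both ways, with Gdf9 at 0.90 and Zp2 at -1.16. Turning the sign would turn every direction below. A ratio does not tell fewer cells of a type from less RNA per cell. An array carried values for 6452 to 14012 probes, fewest on replicate 1 of ovary against testis. That array also gave the highest median of the ribosomal protein genes in its comparison. Errors are standard errors of 1 limma fit over all arrays, and a gene was called where its p, adjusted by Benjamini-Hochberg over the 4465 genes, was under 0.05.

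Promoter sequences from RefSeq (mouse assembly GRCm38.p6) were found for 55 of the 69 genes. The stretches that follow run 5′ to 3′ on the strand that reads as the messenger RNA. They reach from 80 bases before the annotated start through 20 bases from it. They are shown for members that lay at opposite ends of the gonad comparisons: the X-linked Rps4x and Rpl10 and the autosomal Rps3 and Rpl14, which had high ratios of ovary to testis, and then Rps7, Rpl41 and Rpl22l1, which were called lower in 15 day and knockout testis. Rpl12, whose probes disagreed in sign, is shown for the pyrimidine run at its start. Capitals mark matches to the motifs searched.
Rps4x, chrX:102189372-102189471, minus strand: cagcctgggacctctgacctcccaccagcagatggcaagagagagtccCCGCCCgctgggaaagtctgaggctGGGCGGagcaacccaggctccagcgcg
Rpl10, chrX:74270736-74270835, plus strand: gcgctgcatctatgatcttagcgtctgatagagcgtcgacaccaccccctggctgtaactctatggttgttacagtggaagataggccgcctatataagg
Rps3, chr7:99483690-99483789, minus strand: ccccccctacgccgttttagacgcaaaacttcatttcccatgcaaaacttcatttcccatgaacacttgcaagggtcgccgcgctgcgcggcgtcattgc
Rpl14, chr9:120571437-120571536, plus strand: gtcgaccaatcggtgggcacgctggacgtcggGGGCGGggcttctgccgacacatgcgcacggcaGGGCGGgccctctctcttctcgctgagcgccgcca
Rps7, chr12:28635934-28636033, minus strand: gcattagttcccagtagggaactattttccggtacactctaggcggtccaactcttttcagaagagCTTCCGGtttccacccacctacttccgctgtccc
Rpl41, chr10:128549149-128549248, minus strand: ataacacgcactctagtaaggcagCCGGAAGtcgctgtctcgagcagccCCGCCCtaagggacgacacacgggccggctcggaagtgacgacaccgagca
Rpl22l1, chr3:28805428-28805527, plus strand: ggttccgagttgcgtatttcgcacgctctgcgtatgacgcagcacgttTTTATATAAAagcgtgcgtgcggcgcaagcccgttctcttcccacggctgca
Rpl12, chr2:32961632-32961731, plus strand: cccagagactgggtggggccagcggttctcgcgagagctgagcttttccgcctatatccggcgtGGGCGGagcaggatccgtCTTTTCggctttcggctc

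The motifs were counted in RefSeq windows of 250 bases before to 50 after the start, of which the 55 genes had 66 and all genes together 32851. On both strands, GGGCGG (the GC box) was in 62.12% of the members' windows and 35.66% of all windows. CCGGAAG, a motif of ETS factors, was in 36.36% against 8.86%, and AAGATGG, the core of the YY1 motif, in 18.18% against 6.34%. TATAAA, the TATA box, was in 6.06% against 13.62%. The pyrimidine runs CTTTCC or CTTTTC were read on the strand of the messenger RNA, starting within 10 bases of the annotated start. They were in 18.18% of the members' windows and 1.94% of all windows. Each motif was counted on its own, and neighbouring matches can overlap: the last letters of CCGGAAG are the first of AAGATGG, and TATAAA can overlap itself on the opposite strand. The 23 genes with CCGGAAG had a median ovary to testis ratio of 0.84 and the other members with a window one of 0.80. The 8 genes with CTTTCC near the start had a median of 0.69, against 0.84 without it. These are matches of letters, and no binding was measured.

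The comparison of ovary with testis asks which genes differ between the gonads. Ribosomal protein genes lay on the ovary side: their median log2 ratio was 0.81, against -0.18 for all tested genes, and 63 of 69 had a fitted ratio above 0. Of the 69, 48 were higher in ovary and 0 lower, where the same fit called 22.4% of all tested genes higher and 36.5% lower. At an unadjusted p under 0.05 the count of members was 49. The called genes came from both subunits, 27 of 41 large and 19 of 25 small. On every array that gave a value, 50 of the 69 were above 0, a count not made over all tested genes. The median of the members on each array was 1.27, 0.76, 0.68 and 0.48 (mean 0.80 ± 0.34 SD, n = 4), so all 4 arrays lay above 0.

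**Figure D1:**
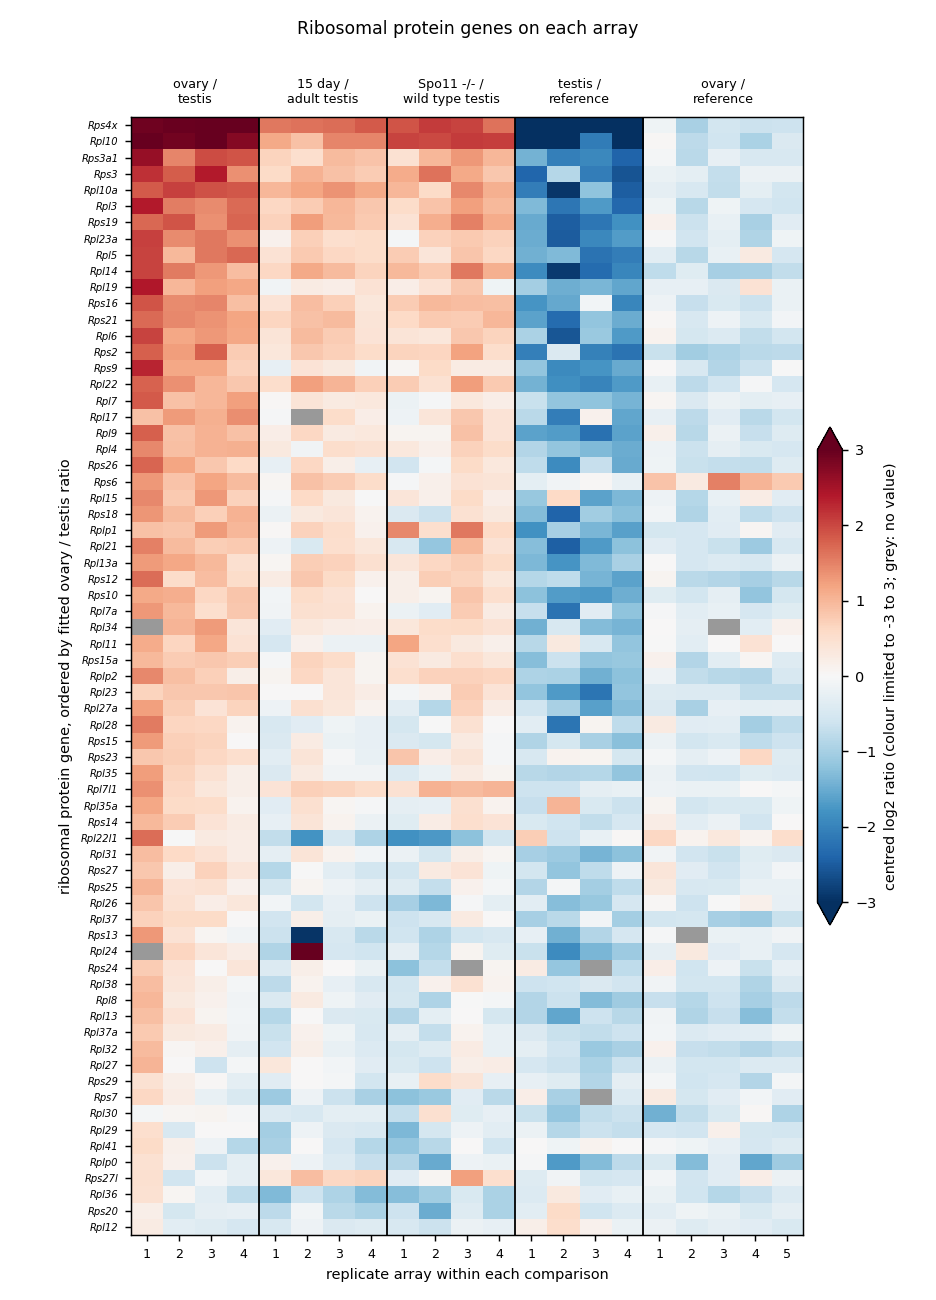
Centred log2 ratio of each of the 69 ribosomal protein genes (lines, ordered by the fitted ovary to testis ratio) on each of the 21 arrays (columns, by comparison and replicate); red is above 0, blue below, grey no value, and colour is limited to -3 to 3. The block of testis against reference is blue for most genes, with Rps4x and Rpl10 the lowest at -3.31 each, and the block of ovary against testis is mostly red.

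The X-linked pair led the list. Rps4x, a small subunit protein, was at 2.92, 2.96, 3.69 and 3.27 on the 4 ovary against testis arrays. The fitted ratio was 3.21 ± 0.16 (9.24-fold, adjusted p = 4.09e-12). Rpl10, which joins the large subunit late in its assembly, was at 3.50, 2.90, 3.04 and 2.75. Its fitted ratio was 3.05 ± 0.23 (8.27-fold, adjusted p = 9.02e-10). All 8 of these array values were above the highest fitted autosomal member, Rps3a1 at 1.98. Among all 4465 genes Rps4x ranked 5 and Rpl10 ranked 7 from the highest, and among the 119 tested X-linked genes they ranked 1 and 2. The other 117 X-linked genes had a median of 0.45, with 49 higher and 24 lower. The X-linked Rpl36a had a value on 3 of the 4 arrays and averaged 2.64 on them (2.54 to 2.82), with no test.

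All probes of the X-linked pair pointed the same way. The 4 probes of Rpl10 lay between 2.91 and 3.19 in ovary against testis and the 3 of Rps4x between 2.18 and 3.76.

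Next came autosomal genes of both subunits. Rps3a1 was at 2.62, 1.46, 1.97 and 1.88 in ovary against testis, with a fit of 1.98 ± 0.19 (3.95-fold, adjusted p = 1.69e-08). Rps3, which lies at the entry of the messenger RNA channel, was at 2.20, 1.80, 2.38 and 1.38, with a fit of 1.94 ± 0.22. Rpl10a, the protein of the mobile stalk of the large subunit, was at 1.83, 2.04, 1.92 and 1.86, with a fit of 1.91 ± 0.19. None of these 3 genes had an array near 0. The 5 genes ranked highest were these 3 and the X-linked pair.

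At the other end, 21 members were not called in ovary against testis, and the 6 below 0 were Rpl12, Rps20, Rpl36, Rps27l, Rplp0 and Rpl41. Rpl36 was at 0.46, 0.06, -0.31 and -0.76, with a fit of -0.14 ± 0.19 (adjusted p = 0.55). Rpl41, the smallest ribosomal protein, was at 0.58, 0.15, -0.16 and -0.85, with a fit of -0.07 ± 0.20. Both spanned 0 among the arrays. Rpl12, at the base of the stalk, was lowest at -0.24 ± 0.15 (adjusted p = 0.17), but its 2 probes disagreed, at 0.63 and -1.11. In all, 6 of the 46 genes with several probes had probes of both signs in this comparison.

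The stalk genes differed in their calls. Rplp1 was higher in ovary by 0.99 ± 0.19 and Rplp2 by 0.81 ± 0.17, while Rplp0, which anchors both to the ribosome, was at -0.09 ± 0.26 (adjusted p = 0.80). The difference between these genes was not tested. Of the ribosomal protein genes outside the symbol pattern, 2 of 5 were tested: Rpsa was higher in ovary by 1.26 ± 0.18 and Fau was at 0.14 ± 0.18, not past the threshold.

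Other genes of the translation machinery had medians below that of the ribosomal protein genes. Of 71 tested genes of ribosome assembly (120 listed), 7 were higher in ovary and 32 lower, with a median of -0.36. Among them Ncl (nucleolin), of the nucleolus, was higher by 1.02 ± 0.20, and Lyar was lower, at -4.29 ± 0.45. Of 39 tested initiation and elongation factors and related genes (53 listed), 6 were higher and 17 lower, with a median of -0.38. Elongation factor genes differed among themselves: Eef1b2 was higher by 1.85 ± 0.18 and Eef1a1 by 0.59 ± 0.20, whereas Eef1g was lower, at -0.38 ± 0.16. Of 37 tested mitochondrial ribosomal protein genes (46 listed), 2 were higher and 10 lower, with a median of -0.41. Over all tested genes the fit called 22.4% higher and 36.5% lower, with a median of -0.18. No test set these lists against the ribosomal protein genes or against all genes.

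Cell type markers differed between the gonads as well. In ovary against testis, 7 of 9 tested stroma markers were higher and 1 lower, and 4 of 4 of smooth muscle, 4 of 5 of Leydig and steroidogenic cells, 3 of 4 of macrophages and 2 of 4 of oocytes were higher with 0 lower. Germ cell markers leaned to testis, with 6 of 7 of spermatocytes lower and 0 higher, 3 of 4 of spermatids lower and 1 higher, and 3 of 5 of spermatogonia lower and 1 higher. Other lists were mixed: 4 of 8 Sertoli markers were higher and 2 lower, 2 of 3 granulosa markers higher and 1 lower, and 1 of 2 erythroid markers higher and 1 lower. Amhr2 and Inha stood in both the Sertoli and the granulosa list. The part of cell types in the ratios of the ribosomal protein genes was not tested.

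Setting testis against the reference RNA asks how testis differs from a fixed mixture. Here the median of the ribosomal protein genes was -1.08, against 0.12 for all tested genes, and 67 of 69 fitted ratios were below 0. Of the 69, 58 were lower in testis and 0 higher, where the fit called 25.9% of all genes lower and 35.5% higher. At an unadjusted p under 0.05 the count of members was 59. The array medians were -0.87, -1.15, -1.13 and -1.19 (mean -1.09 ± 0.15 SD, n = 4), so every array lay below 0. On every array that gave a value, 55 of the 69 genes were below 0, again a count not made over all tested genes.

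Rps4x was at -3.30, -3.14, -3.18 and -3.63 in testis against reference, with a fit of -3.31 ± 0.16 (9.93-fold lower, adjusted p = 1.47e-12). Rpl10 was at -3.40, -4.29, -2.09 and -3.44, with a fit of -3.31 ± 0.23 (9.89-fold lower). They ranked 9 and 10 from the lowest of 4465 genes. Rpl36a was low too, with a mean of -3.14 over 4 arrays (-4.33 to -2.09) and no test. The lowest autosomal members were Rpl14 at -2.26 ± 0.19, Rpl10a at -2.17 ± 0.19 and Rps19, a gene mutated in Diamond-Blackfan anaemia, at -1.99 ± 0.19.

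The 11 members not called in testis against reference included Rpl41 at 0.00 ± 0.20, Rpl22l1 at -0.01 ± 0.26, Rps20 at -0.19 ± 0.20 and Rpl36 at -0.17 ± 0.19. Rpl12 was at 0.16 ± 0.15, with probes at -1.07 and 1.39. Rps6 was not called either, at -0.145 ± 0.17, but 3 of its 4 probes were below 0, the lowest at -1.1. The remaining probe was at 2.35.

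Ovary against the reference showed smaller ratios. The median of the ribosomal protein genes was -0.41, against -0.06 for all genes, and 66 of 69 fitted ratios were below 0. Of the 69, 20 were lower in ovary than in the reference and 1 higher, where 13.4% of all genes were called lower and 9.54% higher. The array medians were -0.11, -0.55, -0.34, -0.48 and -0.40 (mean -0.37 ± 0.17 SD, n = 5), all below 0. The count of called genes depended on the scale of the arrays, on channel order and on single arrays. It was 21 in all, 48 with arrays scaled to the same spread, 35 with a term for channel order, and 13, 12 and 13 without replicates 2, 4 and 5, and the count of lower genes fell to 12, 13, 11 and 12 without replicates 2, 3, 4 and 5.

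Rplp0 was lowest in ovary against reference at -0.45, -1.29, -0.33, -1.56 and -1.07, with a fit of -0.94 ± 0.24 (adjusted p = 0.0056). In testis against reference it was at -0.95 ± 0.26, so it was lower than the reference in both gonads. Rps2 was at -0.84 ± 0.20, and Rpl8, near the peptidyl transferase centre, at -0.79 ± 0.16. The X-linked pair stood near the other members: Rps4x was at -0.58 ± 0.14 (adjusted p = 0.00414) and Rpl10 at -0.55 ± 0.21 (adjusted p = 0.0605).

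Rps6, the substrate of S6 kinase, was the 1 member called higher in ovary than in the reference, at 0.85, 0.28, 1.5, 1.03 and 0.79 (fit 0.89 ± 0.15, adjusted p = 0.000194). The value came from 1 of its 4 probes, which was at 4.58, while the other 3 were at -0.67, -0.42 and -0.33. With only probes that gave a value on all 21 arrays, Rps6 was at -0.50, and with 1 probe per gene at -0.67, in both cases no longer called.

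**Figure D2:**
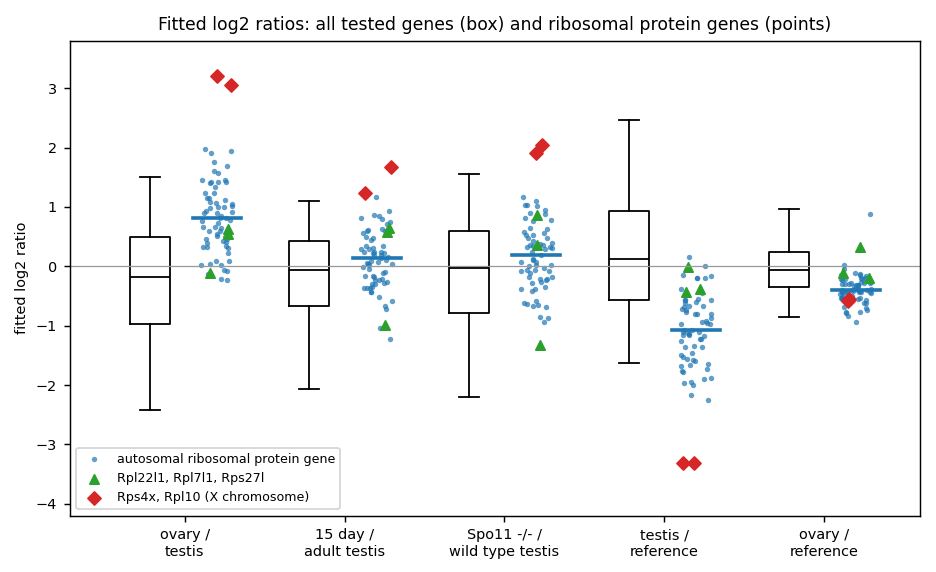
Fitted log2 ratio in each of the 5 comparisons: boxes show all 4465 tested genes (median, quartiles, and whiskers from percentile 5 to percentile 95), and points show the 69 ribosomal protein genes with their median as a line. The X-linked pair (diamonds) lies above the autosomal members in ovary against testis, below them in testis against reference (-3.31 each), and among them in ovary against reference (-0.58 and -0.55).

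The difference between the reference comparisons gives a second ovary to testis ratio from other arrays. Through the reference, the median of the members was 0.66, against -0.14 for all genes, and 31 of 69 were higher in ovary and 0 lower, where 17.6% of all genes were higher and 28.7% lower. With arrays scaled to the same spread the median was 0.36, with 19 members higher and 2 lower. Rpl10 was at 2.76 ± 0.31 and Rps4x, at 2.73, stood beside it. The direct minus the indirect ratio was called in 0 members and 0% of all genes, and at an unadjusted p under 0.05 in 0 members and 1.66% of genes. The median difference over members was 0.12, with 47 of 69 above 0, and it was -0.05 without replicate 1 of ovary against testis.

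Testis of 15 day animals, in which the first wave of meiosis is under way, was compared with adult testis. The ribosomal protein genes were split: their median was 0.15, against -0.07 for all genes. Of the 69, 19 were higher at 15 days, where 18.0% of all genes were, and 8 were lower, where 28.1% were. Of the 22 members with 3 or more probes, 9 were higher and 0 lower. Both the 9 and the 19 counted Rps6, at 0.56 ± 0.17. Its 4 probes ran from 0.02 to 2, so its call leaned on the highest probe. Of the 23 members with 1 probe, 4 were higher and 3 lower. The share of higher genes was thus 27.5% of members. The array medians were -0.11, 0.38, 0.26 and 0.02 (mean 0.14 ± 0.22 SD, n = 4), and the spread between arrays was larger than the mean.

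Rps4x was highest at 15 days, at 1.59, 1.62, 1.68 and 1.84, with a fit of 1.68 ± 0.16 (3.20-fold, adjusted p = 2.91e-08). Rpl10 was at 1.14, 0.87, 1.46 and 1.46, with a fit of 1.23 ± 0.23 (2.35-fold, adjusted p = 0.000184). Both were above 0 on all 4 arrays. Of the autosomal genes, Rpl10a was at 0.98, 1.19, 1.34 and 1.14, with a fit of 1.16 ± 0.19, and Rps19 was at 0.93 ± 0.19. Rpl36a gave values on 2 of 4 arrays, with a mean of 1.56 and no test.

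The genes that were lower at 15 days than in adult testis were Rps13, Rpl36, Rpl22l1, Rps7, Rps20, Rpl41, Rpl29 and Rpl12. Rps13, Rpl36 and Rps7 had 1 probe each, and the others 2. Rpl36 was at -1.32, -0.63, -0.93 and -1.30, with a fit of -1.04 ± 0.19 (adjusted p = 0.00012), and every array lay below 0. Rps13 was at -0.64, -2.94, -0.49 and -0.80, with a fit of -1.22 ± 0.30 that leaned on replicate 2. Without that array Rps13 was at -0.64 and still called (adjusted p = 0.0327). Rpl24 also stood apart on replicate 2, at 4.19 against -0.90, -0.51 and -0.60 on the others, and was named after its values were seen. Rps7 and Rpl29 lay at -0.71 ± 0.22 and -0.52 ± 0.20. Rpl12 lay at -0.37 ± 0.15, but its probes had opposite signs, at 0.23 and -0.96, and with 1 probe per gene it was at 0.23 and not called.

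The 15 day calls moved with the arrays in use. The numbers in the array titles fall into runs, and the 15 day arrays lay in runs 2 and 5; what a run stands for is not given in the sources used here. Within run 2 alone 10 members were called and within run 5 alone 13, and with a term for the run 16 were called, 14 higher and 2 lower. The count of lower genes was 4, 5 and 3 without replicates 1, 3 and 4, and that of higher genes 12 without replicate 2. With arrays centred on their mean, the split was 22 higher and 5 lower.

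Testis of Spo11 knockout animals, in which germ cells stop in meiotic prophase, was compared with wild type testis. The median of the members was 0.19, against -0.04 for all genes, with 22 of 69 higher and 10 lower, where 26.7% of all genes were higher and 30.5% lower. The array medians were -0.18, 0.12, 0.51 and 0.25 (mean 0.17 ± 0.29 SD, n = 4), again a spread larger than the mean. All 4 knockout arrays lay in run 1, which held no other comparison, so effects of that run on the ratio cannot be told apart from this comparison, though each array held both genotypes. The lower genes numbered 4 without replicate 1 and 6 without replicate 2, and the split was 28 higher and 7 lower with the values as deposited, 27 and 7 with mean centring and 16 and 6 with arrays scaled to the same spread.

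Rpl10 was at 2.04, 1.99, 2.10 and 2.07 in the knockout, a narrow range, with a fit of 2.05 ± 0.23 (4.13-fold, adjusted p = 2.49e-07). Rps4x was at 1.88, 2.10, 2.04 and 1.64, with a fit of 1.91 ± 0.16 (3.77-fold). Among the 119 X-linked genes they ranked 8 and 10 from the highest, and the other 117 had a median of 0.78, with 64 higher and 16 lower. Rpl36a averaged 0.89 on 3 arrays, with no test. The autosomal members that followed were Rps3 at 1.17 ± 0.22, Rpl14 at 1.10 ± 0.19, Rps19 at 1.03 ± 0.19 and Rplp1 at 1.03 ± 0.19.

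The calls of the stalk genes differed in the knockout, too, though the difference between the genes was again not tested. At 15 days 0 of the 3 were called, and through the reference only Rplp1 was, higher in ovary. Rplp1 was at 1.44, 0.51, 1.59 and 0.59 and Rplp2 at 0.50, 0.70, 0.70 and 0.64, both called higher (adjusted p = 7.42e-05 and 0.00361). Rplp0 was at -0.88, -1.50, -0.16 and -0.19, with a fit of -0.68 ± 0.26 and called lower (adjusted p = 0.0316). That call was lost in 6 of the alternatives, among them without replicate 1 or 2.

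Lower in the knockout were Rpl22l1, Rpl36, Rps7, Rps20, Rplp0, Rpl26, Rpl41, Rps24, Rpl29 and Rpl12. The probes of Rpl12 again had opposite signs, at 0.13 and -0.90, and with 1 probe per gene it was at 0.13 and not called. Rpl36 was at -1.28, -1.05, -0.46 and -0.96 (fit -0.94 ± 0.19) and Rps20 at -0.61, -1.49, -0.38 and -0.96 (fit -0.86 ± 0.20). Rps7, which was -1.22, -1.12, -0.34 and -0.80, had a fit of -0.87 ± 0.22. All arrays of these 3 genes were below 0. In contrast, Rps24 rested on 3 arrays at -1.23, -0.71 and 0.09, was just inside the threshold, and lost its call in 10 alternatives. Rpl26 was at -1.01, -1.34, -0.04 and -0.29, and Rpl41 at -1.165, -0.83, 0.015 and -0.60. On replicates 1 and 2, which gave the lower values of both genes, the knockout was in channel 2. Rpl36, Rps7 and Rps24 had 1 probe each. Of the 22 members with 3 or more probes, 10 were higher in the knockout and 2 lower.

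**Figure D3:**
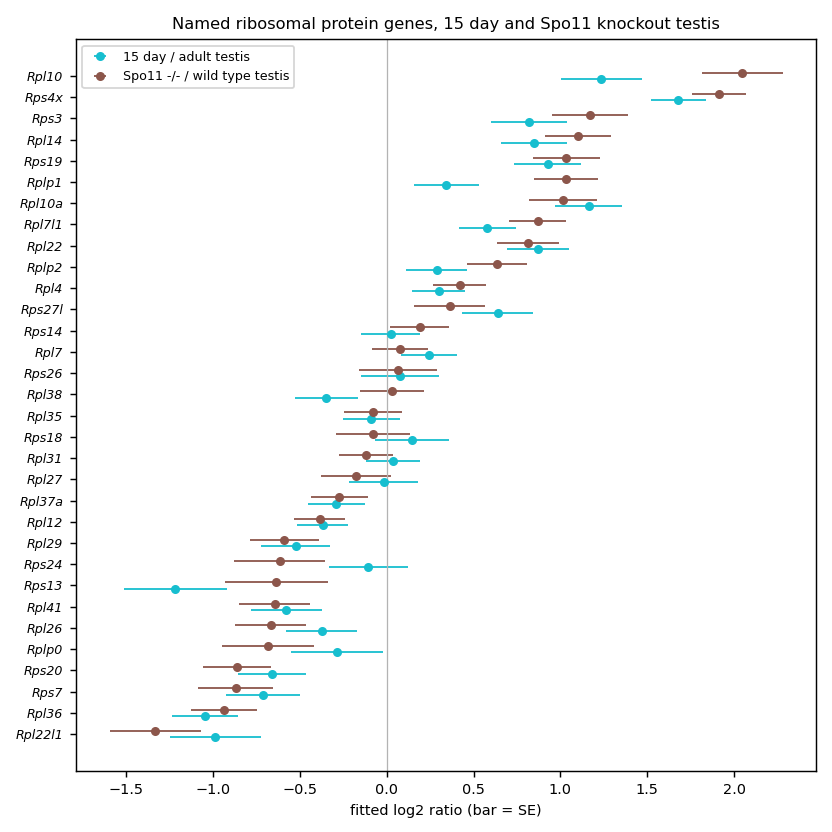
Fitted log2 ratio (points) with its SE (bars) for the ribosomal protein genes named in either comparison, at 15 days (relative to adult testis) and in the Spo11 knockout (relative to wild type). Rps4x and Rpl10 are at the top in both, and Rpl22l1 (-0.99 and -1.33) and Rpl36 (-1.04 and -0.94) are near the bottom in both.

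The 15 day and knockout ratios may share adult wild type testis as the denominator, so they are given side by side. The knockout ratio minus the 15 day ratio was called in 0 members by limma, while 2.40% of all genes were called. At an unadjusted p under 0.05 there were 3 members, 4.35% of them, against 14.8% of all genes. These were Rpl10 (difference 0.81 ± 0.33, adjusted p = 0.232), Rpl11, a partner of the 5S rRNA, at 0.72, and Rplp1 at 0.69. In the knockout 8 of 8 tested Sertoli cell markers were higher, and at 15 days 4 of 8. Of Leydig and steroidogenic markers, 5 of 5 were higher in the knockout, while at 15 days 0 were higher and 2 lower, and 3 of 5 were called in the difference. Macrophage markers were higher in 4 of 4 and 2 of 4, and smooth muscle markers in 4 of 4 and 3 of 4. Spermatogonia markers were higher in 3 of 5 and 2 of 5, and stroma markers in 6 of 9 in both, with 2 and 1 lower. Genes listed as granulosa markers were higher in 2 of 3 in both, but Amhr2 and Inha among them were also counted as Sertoli markers. Of spermatocyte markers 4 of 7 and 3 of 7 were lower, with 1 higher at 15 days, and of spermatid markers 3 of 4 in both. Of 4 oocyte markers 2 were higher and 1 lower in the knockout, and 1 was lower at 15 days; of 2 erythroid markers 1 was higher in the knockout and 1 lower at 15 days. Both comparisons set testis against testis, so the granulosa and oocyte lists name genes and not cells known to be present. The part of cell types in the ratios was not tested.

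Among the members are 3 genes whose symbols mark them as copies of another member: Rpl22l1, Rpl7l1 and Rps27l. Pairing each with its relative was chosen after the values were seen. Rpl22 was higher at 15 days by 0.87 ± 0.18 (0.53, 1.24, 1.01 and 0.71) and in the knockout by 0.81 ± 0.18 (0.75, 0.46, 1.26 and 0.78). Rpl22l1 was lower at 15 days, at -0.99 ± 0.26 (-0.73, -1.78, -0.49 and -0.94), and in the knockout, at -1.33 ± 0.26 (-1.80, -1.73, -1.23 and -0.56). The values of the pair did not overlap in either comparison. The Rpl22l1 call at 15 days was lost within run 5 alone, at -0.71 (adjusted p = 0.141), and with the run term, at -0.68 (adjusted p = 0.122; range over the alternatives 0.00135 to 0.141). RPL22 protein is known to repress Rpl22l1 messenger RNA in mouse cells, which is background and not measured here. In ovary against testis both genes lay above 0, Rpl22 at 1.235 and Rpl22l1 at 0.54 (not called). In testis against reference Rpl22 was at -1.735 and Rpl22l1 at -0.01 (not called), and in ovary against reference they were at -0.42 and 0.33.

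Rpl22 minus Rpl22l1 was 1.86 ± 0.79 (SD, n = 4) at 15 days and 2.14 ± 0.56 (n = 4) in the knockout, above 0 on all arrays. In testis against reference it was -1.72 ± 0.38 (n = 4) and in ovary against reference -0.75 ± 0.35 (n = 5), below 0 on all arrays. In ovary against testis it was 0.69 ± 0.54 (n = 4). An exact two-sided sign-flip permutation test gave p = 0.125 in each group with n = 4 and 0.0625 with n = 5, the smallest these numbers of arrays allow, and 0.1705 after adjustment over the 15 differences tested.

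Rpl7l1, whose protein takes part in ribosome assembly, was higher at 15 days (0.58 ± 0.16), in the knockout (0.87 ± 0.16) and in ovary against testis (0.63 ± 0.16). Rpl7 was at 0.24 and 0.08 in the first 2, not called, and at 1.23 ± 0.16 in ovary against testis. Rpl7 minus Rpl7l1 was -0.79 ± 0.21 (SD, n = 4) in the knockout, below 0 on 4 of 4 arrays (exact permutation p = 0.125, adjusted 0.1705). It was 0.61 ± 0.34 (n = 4) in ovary against testis, above 0 on all arrays, with the same p.

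Rps27l, a target of p53, was higher at 15 days by 0.64 ± 0.20 (0.35, 0.92, 0.63 and 0.66), and Rps27 was at -0.44 ± 0.20 (-0.85, -0.02, -0.32 and -0.56), not called. The Rps27l call was lost within either run alone, with the run term and without replicate 2. Rps27 minus Rps27l was -1.08 ± 0.15 (SD, n = 4) at 15 days (exact permutation p = 0.125, adjusted 0.1705) and 0.63 ± 0.20 (n = 4) in ovary against testis, with the same p. In the knockout it spanned 0.

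**Figure D4:**
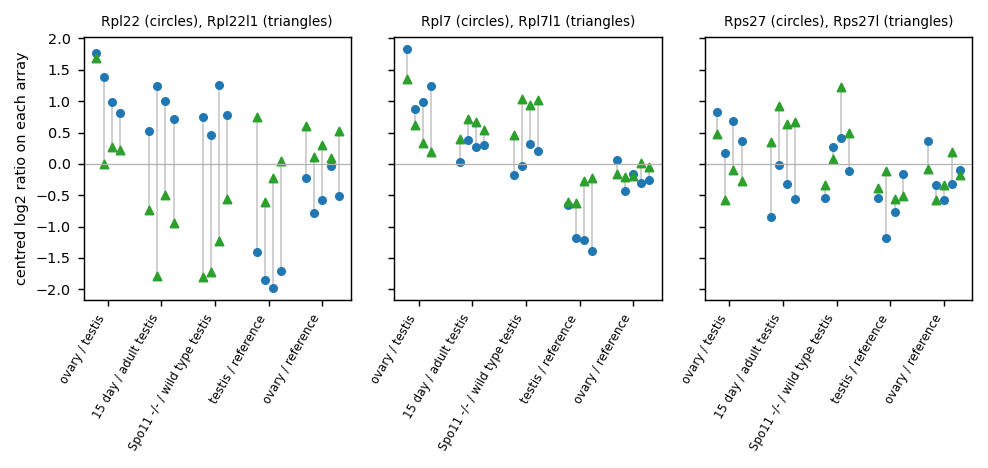
Centred log2 ratio on each array for Rpl22, Rpl7 and Rps27 (circles) and for Rpl22l1, Rpl7l1 and Rps27l (triangles), with a grey line joining the values of 1 array. Rpl22 lies above Rpl22l1 on every array of the first 3 comparisons and below it on every array against the reference.

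The ratios also differed with the channel that held the source named first. Over all comparisons, arrays with that source in channel 1 gave a ratio higher by a median of 0.31 over the 69 genes (from -0.14 for Rpl30 to 0.67 for Rps26), against 0.10 for all genes, and 62 of 69 were above 0. The limma fit called 0 members and 0% of all genes for this term, but at an unadjusted p under 0.05 it held 32 members, 46.4%, against 16.3% of all genes. In ovary against testis both orders were above 0, with array medians of 1.27 and 0.76 in channel 1 and 0.68 and 0.48 in channel 2. At 15 days the medians were 0.38 and 0.26 in channel 1 and -0.11 and 0.02 in channel 2, and in the knockout 0.51 and 0.25 against -0.18 and 0.12. With a term for channel order the called members were 50 in ovary against testis, 28 at 15 days, 37 in the knockout and 59 in testis against reference.

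**Figure D5:**
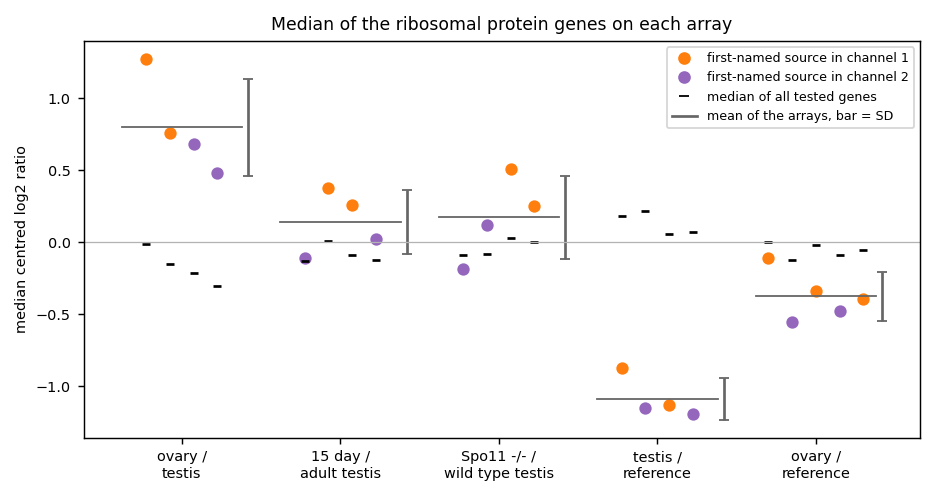
Median centred log2 ratio of the 69 ribosomal protein genes on each of the 21 arrays, coloured by the channel that held the source named first, with the median of all tested genes as a dash and the mean and SD of the arrays in grey. All 4 arrays of ovary against testis lie above 0 (0.48 to 1.27) and all 9 arrays against the reference lie below 0.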

How the data were processed

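Values of the deposited series table were taken to be log2 ratios between channels; neither the labels nor the file headers state the unit, scanning, dyes or what the authors did before deposit, so scale and direction remain inferred. Arrays of opposite channel order within a comparison correlated positively over tested probes (r 0.55 to 0.96), so no array was turned. Each array was centred on its median, probes with values on at least 3 arrays of each comparison were kept (7561 of 16128), and probes of a symbol were averaged. limma 3.58.1 (R 4.3.3) fitted 5 group means over 4465 genes and 21 arrays, with Benjamini-Hochberg adjustment per comparison at 0.05, and was tested on simulated data. Intensities were not used here, so dim probes stayed in, and precision is limited by how many arrays there are. Alternatives changed the centring, scale, probe filter, gene value, arrays fitted, channel or run terms, spread and replicates. Of 16128 probes, 9604 had 1 symbol, 213 several, and 6311 were not listed in the annotation; 9496 matched the RefSeq gene table (GRCm38.p6). Genes named, besides direction anchors and fixed lists, were the 5 highest and 5 lowest members of each comparison, the X-linked, stalk and copy members, members called against the majority, and those with probes of both signs. Members and lists were chosen with earlier results of these data known.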

Additional observations from a re-analysis of the deposited data

Results flagged for a closer look

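For 104 sets of 4 or 5 array values (the median of the ribosomal protein genes and the named genes in their comparisons) the most distant array was compared with the range of the set. In 3 of them 1 array stood far from the others, where chance gives about 1 in 20 sets. Rpl22l1 was at 1.69 on replicate 1 of ovary against testis, while the others lay between -0.01 and 0.27. Rps13 was at -2.94 on replicate 2 of 15 day against adult testis, while the others lay between -0.80 and -0.49. Rpl7l1 was at 0.47 on replicate 1 of knockout against wild type testis, while the others lay between 0.95 and 1.04, and its ratio without that array was 1.0.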

How the results depend on the processing

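The counts of called ribosomal protein genes in the 8 contrasts stayed within 1.5 times in 135 alternative values and moved further in 8, and the medians kept their place in 136, moved in 3 and changed sign in 4. With arrays scaled to the same spread, the median was -0.86 in testis against reference, -0.60 in ovary against reference and 0.36 through the reference, and 48 genes were called in ovary against reference. A channel order term gave 35 there. At 15 days the run term gave 16 calls, run 2 alone 10 and run 5 alone 13. The median of the knockout ratio minus the 15 day ratio was -0.0343 with the run term. Leaving out 1 array at a time, calls ranged from 18 to 23 at 15 days and from 12 to 24 in ovary against reference, the direct minus indirect median from -0.0528 to 0.22, and the knockout minus 15 day median from -0.0508 to 0.16. Of single named genes, 810 values kept direction and call, 87 lost the call and 4 changed sign: Rps6 in ovary against reference (-0.50 with probes on all 21 arrays, -0.67 with 1 probe per gene), and Rpl12 at 15 days (0.23) and in the knockout (0.13) with 1 probe per gene. Causes were not tested beyond the construction of each alternative. No paired analysis was possible because the labels give no replicate numbers, so numbers in accession order pair no arrays. Without intensities, signal over background sets no limit that could be stated.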
